A study of Mus musculus with 6 samples.

Results

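Genes that carry, restrain or report canonical Wnt signalling were examined in mouse embryonic stem cells transfected with an shRNA against Ncoa3. The set comprised 10 genes: the antagonists Sfrp1, Nkd1, Rnf43 and Znrf3, the TCF/LEF factors Lef1, Tcf7 and Tcf7l1, the signal carrier Ctnnb1, and the Wnt targets Sp5 and Axin2. Members were taken by gene symbol from the platform annotation, with every probe kept in view, from the 19057 genes named on the array, and 19 of the 45281 probes belonged to 9 of the 10 genes. No probe was named Tcf7, so its expression was not analysed here.

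The cells were E14, an established line of mouse embryonic stem cells kept on gelatin without feeders in serum and LIF, the cytokine that holds such cells undifferentiated. Day 4 after transfection was measured in 3 biological replicates given an Ncoa3 shRNA plasmid and in 3 given a scrambled shRNA, all delivered with a lipid reagent. Ncoa3 is a coactivator of nuclear receptors. RNA was copied into biotin-labelled cRNA and read on 6 Illumina bead arrays, 1 per replicate.

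In canonical Wnt signalling, secreted Wnt ligands engage Frizzled receptors with an LRP coreceptor, which stops a destruction complex built on Axin proteins from degrading β-catenin. Stabilised β-catenin then binds TCF/LEF proteins on DNA and converts them from repressors to activators. Mouse embryonic stem cells respond to Wnt ligands, and relief of repression by Tcf7l1, their main TCF, favours self-renewal.

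The array could not check the knockdown itself, because the single Ncoa3 probe was above background on 0 of 6 arrays, with raw intensities of 87.6, 91.0 and 90.9 in knockdown cells against 97.4, 85.0 and 96.4 in scrambled cells. The transfection note attached to every sample names an Esrrb plasmid instead, and Esrrb, an orphan nuclear receptor and itself a Tcf7l1-repressed gene, fell by 0.62 ± 0.07 (SE) on the log2 scale (limma adjusted p = 3.58e-04). That fall is of probe ILMN_1228497, and the other Esrrb probe, ILMN_2555396, was above background on 0 of 6 arrays. Between 16262 and 17105 probes were detected on knockdown arrays and between 15720 and 16311 on scrambled arrays. All 7 embryonic stem cell markers were detected on every array, 1 rose and 6 fell, and the sum of their raw intensities was 46927 to 52121 in knockdown cells and 54009 to 61360 in scrambled cells. Of 10 trophectoderm markers, 7 rose, their summed intensity was 6037 to 6666 in knockdown cells and 2940 to 3202 in scrambled cells, and Eomes and Hand1 were at background throughout. Summed intensities were 600 to 606 in knockdown cells and 651 to 678 in scrambled cells for 6 primitive streak and mesoderm markers (1 lower), and 1873 to 2082 in knockdown cells and 1946 to 2094 in scrambled cells for 8 primitive endoderm markers (2 higher, 1 lower). They were 636 to 722 in knockdown cells and 464 to 499 in scrambled cells for 5 neural markers (2 higher), and 508 to 528 in knockdown cells and 539 to 576 in scrambled cells for 6 fibroblast markers (0 called). Mesp1, Gata4, Sox17, Sox1, Pax6, Tubb3, Col1a1 and Col3a1, among the defining markers of those lists, were at background on all arrays. The sums include background, and 4 of 6 fibroblast and 3 of 6 primitive streak and mesoderm markers were never detected, so those sums lie near background. Of the 5 neural markers, 3 were never detected, so their sums also rest in large part on background. The part of the marker shifts in the results on Wnt genes was not tested. In such bulk RNA, fewer cells of a type and less RNA per cell cannot be told apart.

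Raw intensities were corrected for background, quantile normalized and taken as log2, and a probe was tested when it was detected (p under 0.01 against negative control beads) on at least 3 of 6 arrays. Of the 19 member probes, 9 passed, from 5 genes, and 8 of those 9 were detected on all 6 arrays. Sp5 and Axin2 rose after knockdown, Sfrp1 fell, and Ctnnb1 and Tcf7l1 did not pass the test (limma, adjusted p under 0.05 over all 16674 probes tested). By probe, 2 of 9 rose and 2 of 9 fell, where 20.9% of all tested probes rose and 22.8% fell, 43.6% in all. The median log2 change was -0.02 for the 9 member probes and -0.03 for all tested probes. Changes of at least 1.5-fold that passed the test were made by 3 of the 9 member probes, 2 of Sfrp1 and 1 of Sp5, against 15.1% of all tested probes. In 4 of the 9 member probes the knockdown and scrambled arrays did not overlap, against 55.2% of all tested probes.

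**Figure D1:**
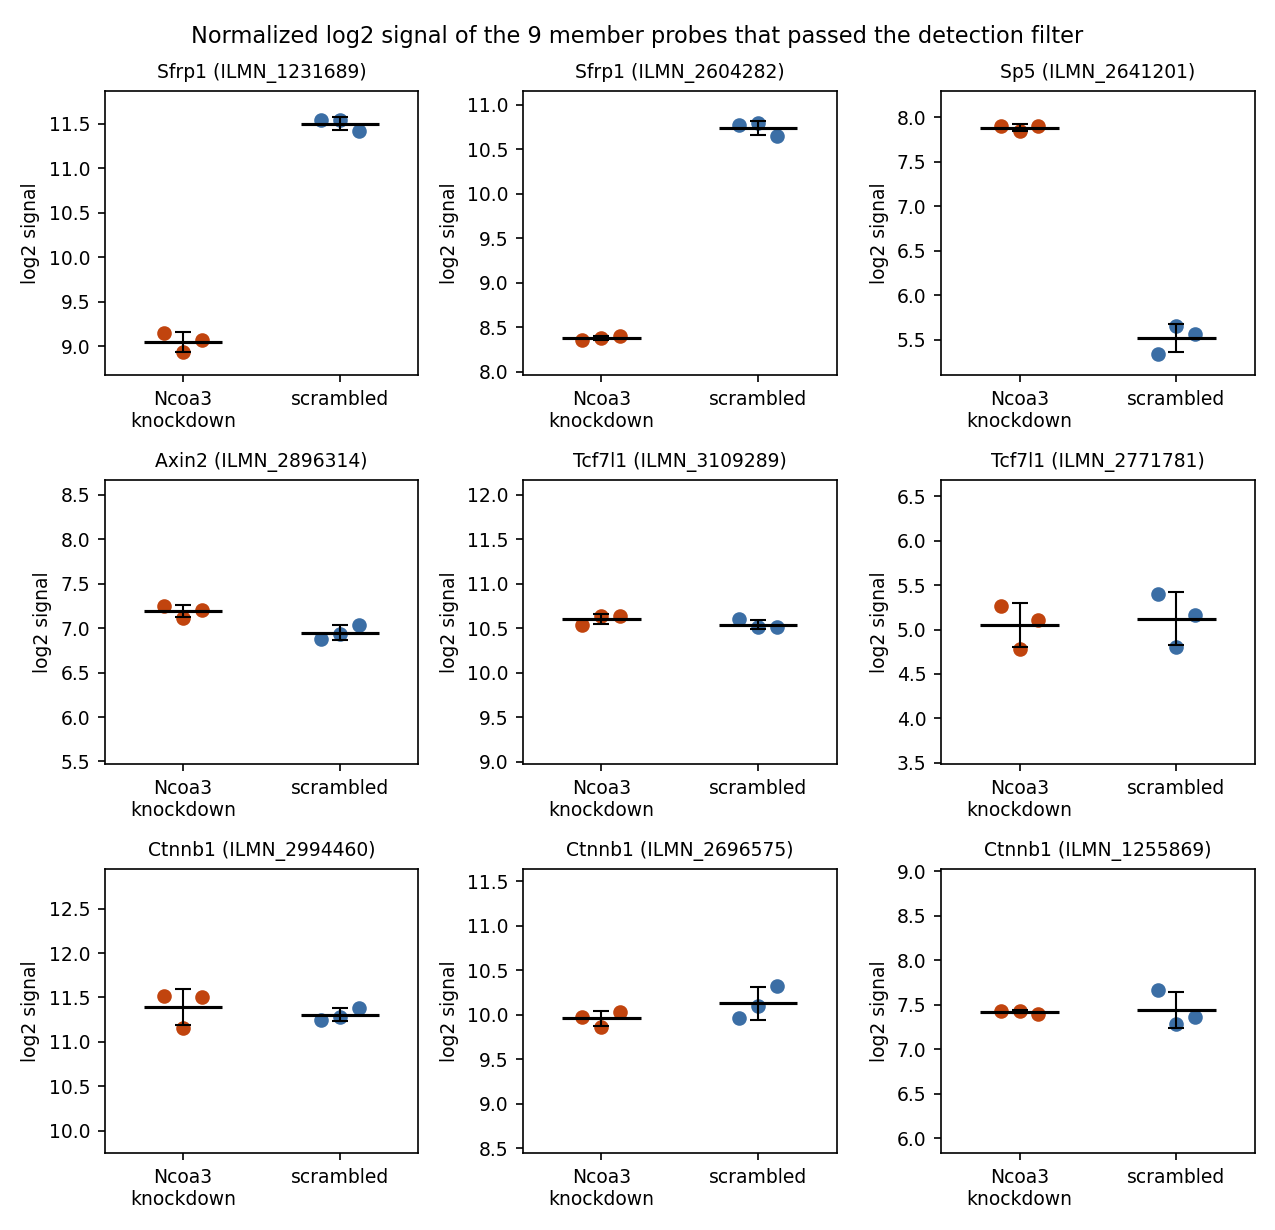
Normalized log2 signal (y axis) of each tested member probe on the 3 knockdown arrays (left, orange) and the 3 scrambled arrays (right, blue), with the mean as a bar and the SD as a whisker. Each panel spans the same height on the log2 scale. Both Sfrp1 probes lie lower and Sp5 lies higher on all knockdown arrays, Axin2 is shifted slightly upward, and the groups overlap for Tcf7l1 and Ctnnb1.

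Sfrp1, a secreted protein that carries a Frizzled-like domain and sequesters Wnt ligands, fell on both of its probes. Probe ILMN_1231689 read 9.15, 8.93 and 9.07 on the log2 scale in knockdown cells, against 11.55, 11.54 and 11.41 in scrambled cells. Probe ILMN_2604282 read 8.36, 8.37 and 8.40 in knockdown cells, against 10.78, 10.79 and 10.65 in scrambled cells. On both probes all 3 knockdown arrays lay more than 2 log2 units below every scrambled array, while arrays of a group differed by far less. The log2 change was -2.45 ± 0.08 (SE), a 5.46-fold fall with a 95% interval of 4.80 to 6.23, on the first probe (limma adjusted p = 1.49e-06). It was -2.36 ± 0.07, or 5.14-fold with an interval of 4.61 to 5.72, on the second (limma adjusted p = 8.61e-07). Ordered by log2 change, these were the 12th and 20th most negative of the 16674 tested probes. Sfrp1 stayed well above background after knockdown, with raw intensities of 633, 629 and 612 on the first probe, against 2957, 2961 and 2771 in scrambled cells.

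Sp5, a zinc finger transcription factor of the Sp family that is switched on directly by β-catenin and TCF, moved the other way. Its single probe, ILMN_2641201, read 7.91, 7.84 and 7.90 on the log2 scale in knockdown cells, against 5.34, 5.65 and 5.56 in scrambled cells. Every knockdown array was above every scrambled array, with means of 7.88 ± 0.04 in knockdown cells and 5.52 ± 0.16 in scrambled cells (SD, n = 3 each). The log2 change was 2.37 ± 0.09 (SE), a 5.15-fold rise with a 95% interval of 4.45 to 5.96 (limma adjusted p = 2.56e-06), the 33rd most positive of all tested probes. The size of the rise depended on how background was treated, since scrambled cells gave raw intensities of only 113, 114 and 113, where the dimmest detected probe on those arrays read 101 to 109. Knockdown cells gave 306, 332 and 311. Without background correction the rise was 2.67-fold, with normexp correction that used no negative controls 2.86-fold, and in the authors' deposited normalized values 2.71-fold.

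Among the 8 members with a promoter window here, a TCF-type motif was found in the window of Sp5 alone. Sfrp1 and Znrf3 had no window and were not searched. The windows, from RefSeq on build GRCm38.p6, run from 250 bases before to 50 bases after a transcript start. Both strands were searched for CTTTGAT and CTTTGTT, the letters of the common TCF/LEF site, and for GGGCGG, the GC box bound by Sp factors. CTTTGAT occurred in 4.29% and CTTTGTT in 6.68% of all 27025 genes with a window. Among the members, 1 of 8 held each of them, Sp5 in both cases, and 0.247% of all 32851 windows held both. That pair was singled out after it was seen. GGGCGG was common, with 38.2% of all genes and 5 of 8 members. The 250 bases before the start of the 2 genes that rose are shown so that the motif content of their promoters can be read side by side, both on the + strand, with the TCF-type letters of Sp5 and the GC boxes of Axin2 in capitals. The Sp5 stretch is chr2:70474673-70474922 and the Axin2 stretch is chr11:108920099-108920348.
Sp5: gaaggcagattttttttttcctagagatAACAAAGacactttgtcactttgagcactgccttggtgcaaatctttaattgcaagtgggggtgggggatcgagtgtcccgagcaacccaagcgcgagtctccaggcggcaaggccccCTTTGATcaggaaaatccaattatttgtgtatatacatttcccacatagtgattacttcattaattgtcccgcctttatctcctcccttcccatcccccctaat
Axin2: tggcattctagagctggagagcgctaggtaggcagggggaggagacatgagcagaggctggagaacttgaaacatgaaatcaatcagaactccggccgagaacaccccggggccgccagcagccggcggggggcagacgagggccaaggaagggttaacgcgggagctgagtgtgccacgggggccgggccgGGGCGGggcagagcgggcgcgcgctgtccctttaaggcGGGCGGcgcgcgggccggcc

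In the Sp5 stretch, CTTTGAT began 104 bases before the start, and CTTTGTT lay on the opposite strand between 222 and 216 bases before it. In the Axin2 stretch the GC boxes began 58 and 20 bases before the start, and neither TCF-type motif was found in these letters. Of its bases, 69.2% were G or C, against 46.0% in the Sp5 stretch. Such matches describe the letters of these windows and were not tested for binding.

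Axin2, a scaffold of the destruction complex and a widely used readout of Wnt activity, rose by far less than Sp5. Probe ILMN_2896314 read 7.25, 7.12 and 7.21 on the log2 scale in knockdown cells, against 6.87, 6.93 and 7.04 in scrambled cells. The groups did not overlap, but the lowest knockdown array lay close to the highest scrambled one. The log2 change was 0.24 ± 0.07 (SE), or 1.18-fold with a 95% interval of 1.05 to 1.33 (limma adjusted p = 0.0310). It was above 0 in all 18 alternative settings and past the threshold in 12. It was not called without knockdown replicate 1 (0.21, adjusted p = 0.0990) or 3 (0.24, 0.0814), without scrambled replicate 1 (0.20, 0.0844) or 2 (0.24, 0.0755), without the filter on dim probes (adjusted p = 0.0642), or with the replicate block (adjusted p = 0.0582).

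Ctnnb1 encodes β-catenin, whose amount in canonical signalling is set mainly by protein degradation. Of its 4 probes, 3 were tested and none passed the test. Probe ILMN_2994460 read 11.52, 11.16 and 11.50 in knockdown cells, against 11.25, 11.28 and 11.39 in scrambled cells. Its log2 change was 0.08 ± 0.11 (SE, 95% interval -0.17 to 0.33, limma adjusted p = 0.557), and the groups overlapped. Probe ILMN_2696575 read 9.97, 9.87 and 10.04 in knockdown cells, against 9.96, 10.10 and 10.32 in scrambled cells, a log2 change of -0.17 ± 0.10 (95% interval -0.41 to 0.07, adjusted p = 0.221). Probe ILMN_1255869 read 7.43, 7.44 and 7.40 in knockdown cells, against 7.67, 7.29 and 7.36 in scrambled cells, a log2 change of -0.02 ± 0.10 (95% interval -0.26 to 0.23, adjusted p = 0.914). The estimates had both signs, and no interval reached a change of 1.5-fold (0.58 on the log2 scale) in either direction.

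Tcf7l1, the TCF family member known chiefly as a repressor of pluripotency genes in these cells, was detected by both of its probes, each annotated to a different RefSeq transcript of the gene. Probe ILMN_3109289 read 10.54, 10.64 and 10.64 in knockdown cells, against 10.60, 10.51 and 10.51 in scrambled cells. Its log2 change was 0.06 ± 0.07 (SE, 95% interval -0.09 to 0.22, limma adjusted p = 0.472). The groups overlapped, because the lowest knockdown value was below the highest scrambled one. Probe ILMN_2771781 sat at the edge of detection, on 2 of 3 arrays in each group. It read 5.26, 4.78 and 5.11 in knockdown cells, against 5.40, 4.80 and 5.17 in scrambled cells, a log2 change of -0.07 ± 0.17 (95% interval -0.48 to 0.34, adjusted p = 0.776).

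**Figure D2:**
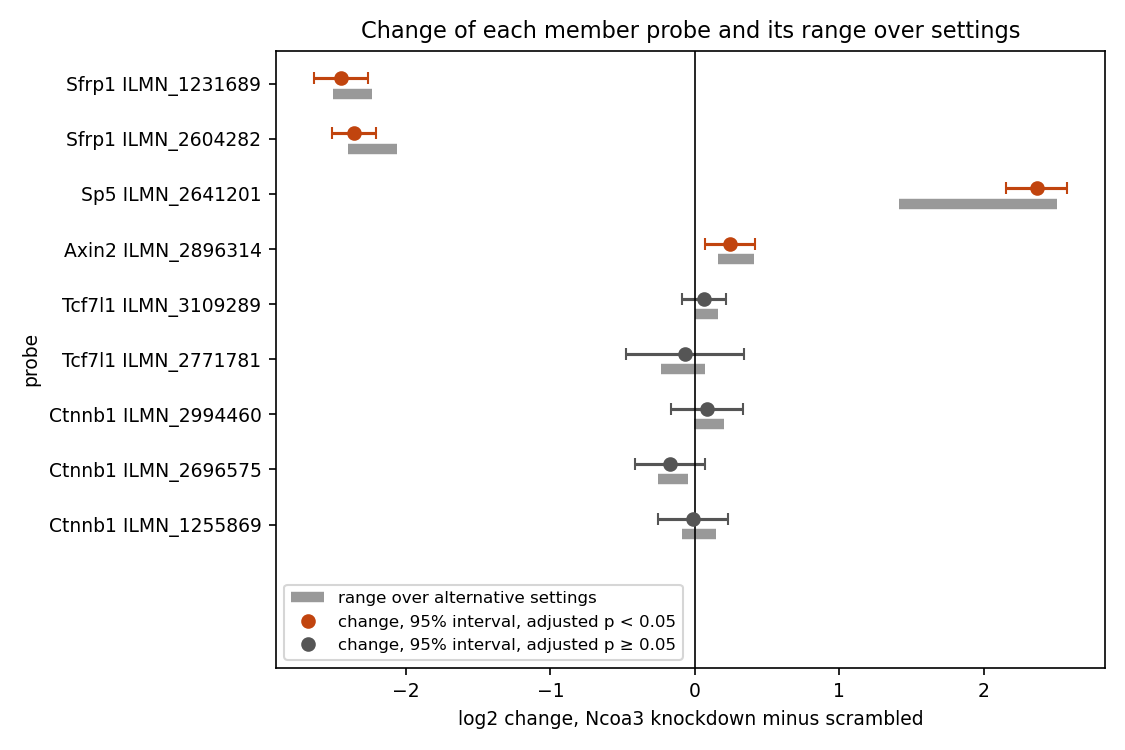
Log2 change, knockdown minus scrambled (x axis), of each tested member probe, with its 95% interval (upper mark) and the range of estimates over the alternative settings (grey bar). The Sfrp1 probes sit near -2.4, the Sp5 estimate of 2.37 ranges down to 1.42, and the Axin2 range of 0.16 to 0.41 stays above 0, while the intervals of Tcf7l1 and Ctnnb1 include 0.

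The other 10 member probes lay at background, and no fold is given for them. They were all probes of Lef1, Nkd1, Rnf43 and Znrf3 and 1 of Ctnnb1. Their raw intensities ran from 72.7 to 106.8 in knockdown cells and from 70.8 to 100.7 in scrambled cells, and 1 of 60 readings was detected. Lef1, a TCF/LEF factor that usually activates and is itself a Wnt target in many tissues, had 4 such probes. Its brightest, ILMN_2648475, read 85.5, 106.8 and 94.7 in knockdown cells, against 90.9, 91.4 and 89.0 in scrambled cells. The detected reading was that of knockdown replicate 2, and the detection p of the other 5 arrays was 0.0259 or more. The other 3 Lef1 probes read between 72.7 and 90.1 in knockdown cells and between 70.8 and 85.8 in scrambled cells.

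Nkd1, an intracellular feedback antagonist that binds Dishevelled, had 2 probes near background. Probe ILMN_2696611 read 99.3, 94.5 and 87.6 in knockdown cells, against 92.6, 92.2 and 94.8 in scrambled cells. Probe ILMN_2916283 read 97.5, 83.4 and 88.0 in knockdown cells, against 98.4, 93.5 and 96.7 in scrambled cells. The groups overlapped on both probes.

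Rnf43 and Znrf3 are related membrane ubiquitin ligases that clear Frizzled receptors from the cell surface and are themselves Wnt-induced in several tissues. Rnf43 probe ILMN_2979097 read 86.8, 83.7 and 80.6 in knockdown cells, against 97.2, 79.1 and 80.6 in scrambled cells, and probe ILMN_1233680 read 89.4, 81.8 and 72.7 in knockdown cells, against 83.9, 77.2 and 75.0 in scrambled cells. The Znrf3 probe ILMN_2837006 read 90.1, 82.7 and 81.4 in knockdown cells, against 84.4, 87.2 and 92.5 in scrambled cells. All 18 readings of these ligases were below the dimmest detected probe of their array. The fourth Ctnnb1 probe, ILMN_2616556, was also undetected, at 95.7, 96.0 and 86.7 in knockdown cells against 100.7, 85.8 and 77.8 in scrambled cells. The other Ctnnb1 probes were detected on every array.

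**Figure D3:**
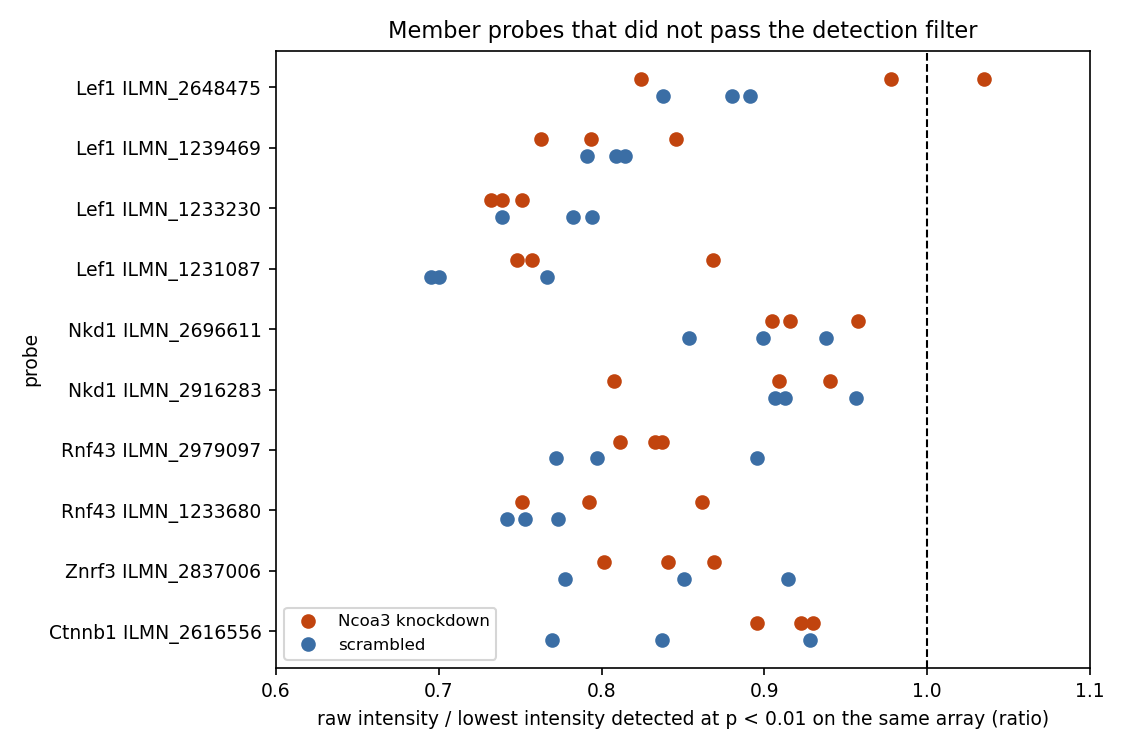
Raw intensity of the 10 member probes that did not pass the detection filter, divided by the lowest intensity detected on the same array (x axis, a ratio), for knockdown arrays (orange, upper) and scrambled arrays (blue, lower). A single reading, Lef1 on a knockdown array at 1.03, lies right of the dashed line at 1, and the lowest is 0.70.

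To place Sfrp1 and Sp5 among all genes, the 3 other named genes with the most similar profile were sought for each, by Euclidean distance between log2 values centred on each gene's mean over the 6 arrays, among 9564 genes. The 2 groups of arrays dominate such a distance. For Sfrp1 they were Krt42, a type I keratin, at a distance of 0.17, Napsa, an aspartic protease, at 0.18 and Slc38a5, an amino acid transporter, at 0.19, against a median of 2.98 over all genes. The log2 changes of Krt42 and Napsa were -2.38 and -2.40. Slc38a5 was not above background on any knockdown array, so its distance rests in part on values at background, and no change is given for it. For Sp5 they were Gask1b at 0.26, Fam13c at 0.27 and Vwa5a at 0.27, against a median of 2.96, with log2 changes of 2.27, 2.35 and 2.49.

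Around these members, 150 further Wnt pathway gene symbols were followed in 8 lists by role. T and Tbxt are names of the same gene, as are Aes and Tle5. Of the 142 on the array, 91 were tested, each by its brightest probe, and 30 rose and 22 fell, 57.1% in all. Over the brightest probes of all genes and unnamed probes, 21.9% rose and 23.4% fell, 45.2% in all. The lists were chosen with earlier results of these data known, so the higher share is no test of the pathway. Since 5 of the 91 were detected in knockdown cells alone and 1 in scrambled cells alone, these passed the filter only through the group in which they were high. The choice of scaling also bears on such splits: 47.8% of all called probes were higher in knockdown cells, against 69.9% after median scaling over all probes, which moved the median change by 0.12 on the log2 scale, and 59.7% in the authors' normalized values.

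Wnt ligands and the machinery that releases them moved in both directions. Of 8 tested ligands, 6 rose and 1 fell, with a median log2 change of 0.88, and 11 further ligands were too dim to test. Wnt7b, at 7.86, 7.60 and 7.69 in knockdown cells against 6.13, 5.49 and 6.04 in scrambled cells, rose 3.56-fold (limma adjusted p = 1.44e-04), and 2.18-fold without background correction. Wnt5a rose 2.38-fold and Wnt6 2.10-fold. Wnt4, undetected in scrambled cells, rose at least 1.61-fold, a bound for the background-corrected values alone, since the authors' deposited normalized values gave a measured fold of 1.39 and uncorrected intensities gave 1.43. Wnt10a likewise passed the filter on knockdown arrays alone. The 1 ligand that fell, named after its value was seen, was Wnt3a at -0.77. Porcn, the acyltransferase that lipid-modifies Wnt ligands, read 7.24, 7.35 and 7.53 in knockdown cells against 9.09, 9.06 and 9.09 in scrambled cells, a 3.26-fold fall (limma adjusted p = 8.58e-06). Wls, the carrier that brings the modified ligands to the surface, rose 2.17-fold. Over the alternative settings Porcn fell 2.43-fold to 3.45-fold and Wls rose 1.70-fold to 2.42-fold.

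At the receptors 3 of 10 tested genes rose and 3 fell, with a median of -0.00. Fzd2 rose 1.96-fold and Fzd7 1.30-fold, while Fzd5 fell by 0.66 and Lrp5 by 0.61 on the log2 scale. Without background correction Fzd2 rose 1.35-fold and Fzd7 1.27-fold, and the log2 changes were -0.64 for Fzd5 and -0.24 for Lrp5. The Lrp5 call was lost without knockdown replicate 2 (-0.47) or 3 (-0.53), without scrambled replicate 1 (-0.65) or 3 (-0.53), or without the filter on dim probes (adjusted p = 0.0743). Its probe was detected on 1 of 3 knockdown arrays, and that of Fzd2 on 1 of 3 scrambled arrays. Lgr6, a receptor for R-spondins and the single tested gene of 7 in its list, fell by 0.51. Its log2 change was -0.22 without background correction. Among other antagonists, 2 of 8 rose, Kremen1 at 1.75-fold and Igfbp4 at 1.54-fold, and 2 fell, Apcdd1 by 1.00 and Shisa2 by 0.69 (median 0.14). Without background correction Kremen1 rose 1.41-fold and Igfbp4 1.26-fold, and the log2 change of Apcdd1 was -0.48. That of Shisa2 ran from -0.76 to -0.40 over the alternative settings.

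Inside the cell, of 18 tested Dishevelled and destruction complex genes, 15 did not pass the test, 1 rose and 2 fell, with a median of 0.03. Nkd2, the paralogue of Nkd1, fell by 0.73 and Dact2 by 0.34, and Apc, the tumour suppressor scaffold, rose by 0.59. Over the alternative settings the change ran from -0.83 to -0.34 for Nkd2 and from 0.37 to 0.76 for Apc. Apc was not called without knockdown replicate 2 (0.46) or 3 (0.54), without scrambled replicate 1 (0.53) or 3 (0.54), or without the filter on dim probes (adjusted p = 0.0559), and Dact2 lost its call under median scaling of all probes (-0.19). Of 23 β-catenin partners and cofactors, 9 rose and 4 fell (median 0.02). Tcf7l2, another TCF factor, averaged 8.08 ± 0.15 in knockdown cells and 7.16 ± 0.07 in scrambled cells (SD, n = 3 each), and rose 1.89-fold (limma adjusted p = 2.18e-04). Hipk1 rose 1.80-fold and Bcl9l 1.55-fold, and Tle5 fell by 0.61. Over the alternative settings the rise was 1.61-fold to 2.11-fold for Tcf7l2, 1.31-fold to 1.99-fold for Hipk1 and 1.37-fold to 1.74-fold for Bcl9l. The change of Tle5 ran from -0.65 to -0.43.

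Beside Sp5 and Axin2, 20 further genes reported as Wnt targets were tested, of which 8 rose and 8 fell, with a median of 0.01. In the background-corrected values those that rose most were Cdx2, undetected in scrambled cells and at least 5.40-fold higher on that scale alone, Jun at 3.64-fold, Id2 at 3.48-fold and Sox9 at 3.43-fold. Cdx2 is also a trophectoderm marker. Without background correction the measured folds were 2.71-fold for Cdx2, 1.92-fold for Jun, 2.46-fold for Id2 and 1.91-fold for Sox9. Those that fell most, named after their values were seen, were Cdx1 and Bmp4. The brightest Cdx1 probe was undetected in knockdown cells, and its other tested probe did not pass the test. Bmp4 fell by 0.99 on the log2 scale on its brightest probe and by 1.06 on the other. By brightest probe, Cdx2, Tnfrsf19 and Ascl2 passed the filter on knockdown arrays alone, and Cdx1 on scrambled arrays alone.

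**Figure D4:**
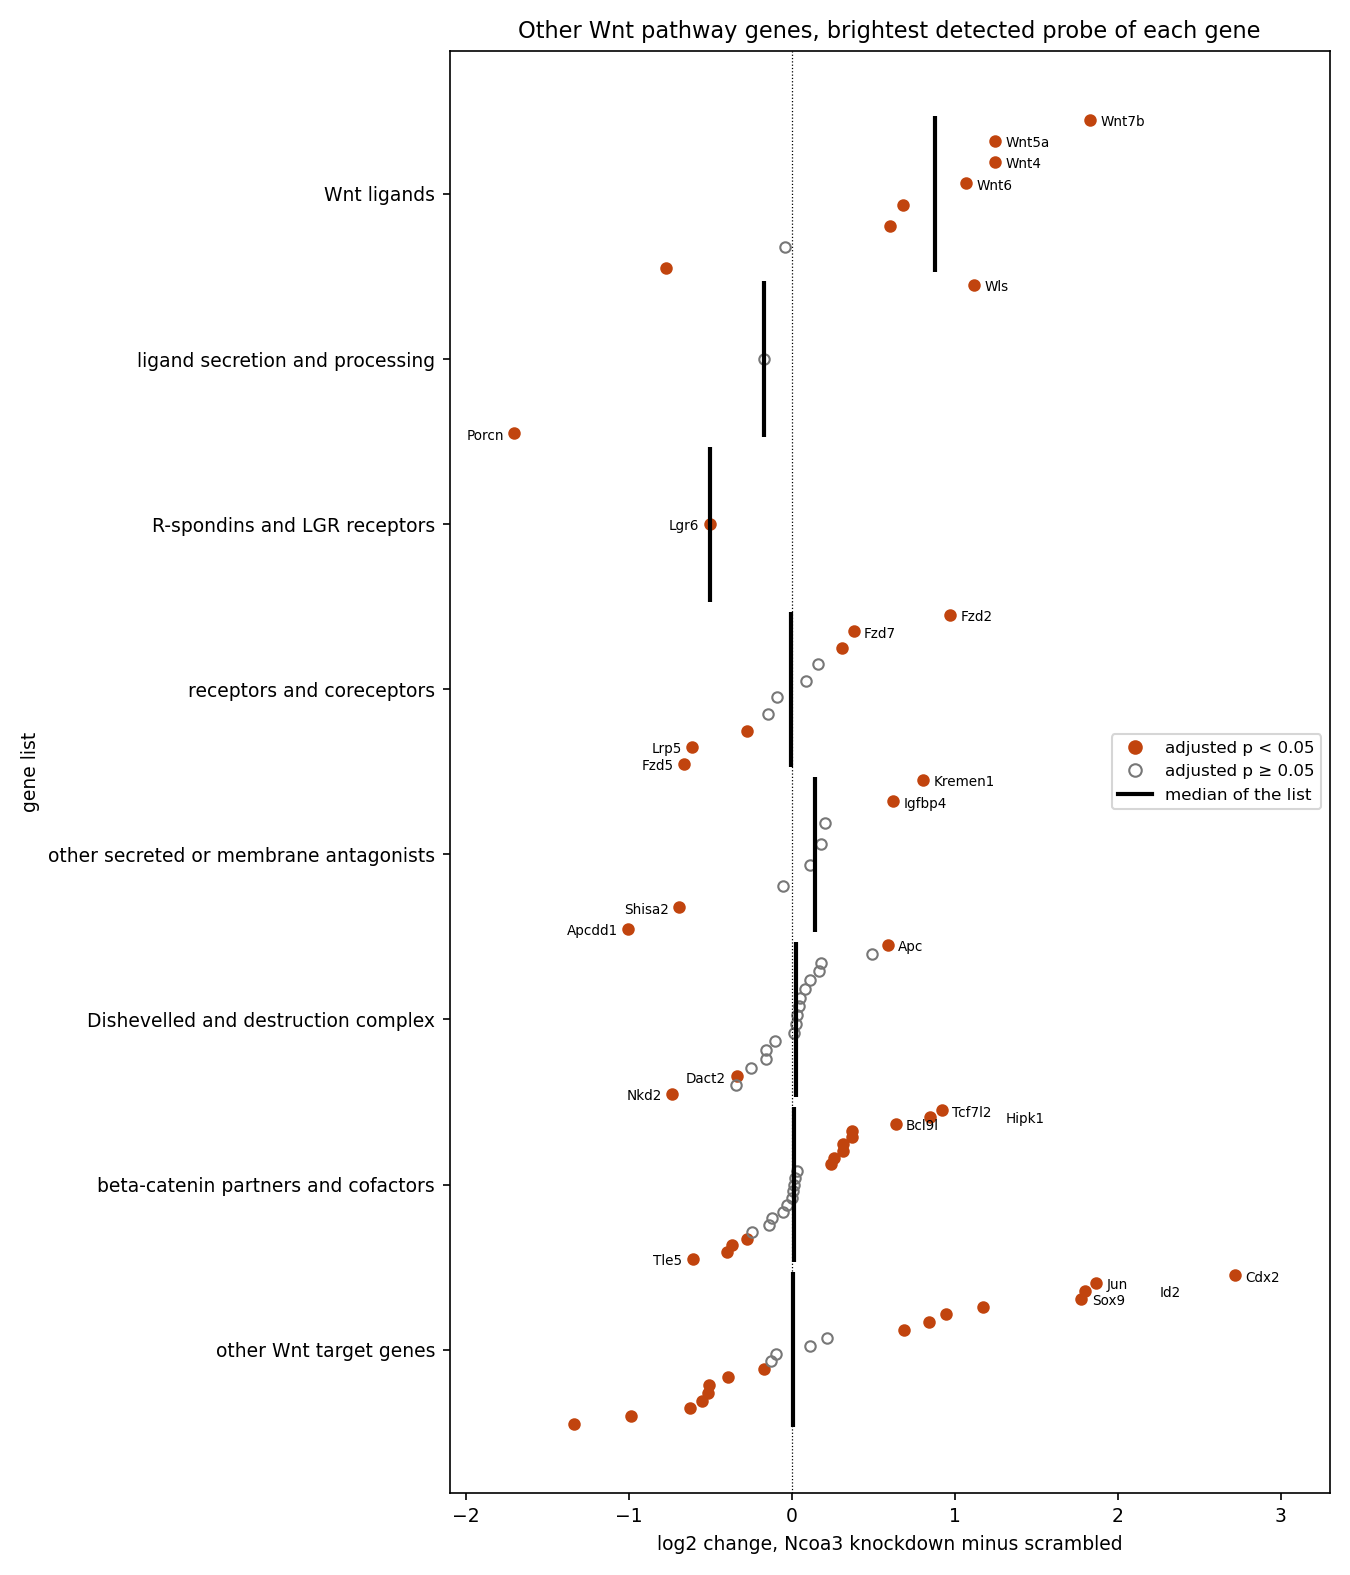
Log2 change, knockdown minus scrambled (x axis), of the brightest tested probe of each further Wnt pathway gene, in lists by role (y axis). Filled points passed the test, open points did not, and the bar is the list's median. It is 0.88 for ligands, -0.51 for the list in which Lgr6 alone was tested, and between -0.17 and 0.14 for the other lists. The ligands include Wnt4 and Wnt10a, which passed the filter on knockdown arrays alone.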

How the data were processed

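The deposited table held the bead array intensity of each probe on a linear scale, non-normalized per the file headers, with a detection p-value that the authors deposited beside each intensity. The authors' normalized intensity was a second deposited table, whose method is not given in the sources used here and whose columns kept the rank order of the raw values. The scanner, its software and the genome build are likewise not given in the sources used here.

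Intensities were background-corrected from the detection p-values and quantile normalized (neqc of limma 3.58.1, R 4.3.3, offset 16), and taken as log2. Probes detected at p under 0.01 on at least 3 arrays were kept, 16674 in all, and fitted together with lmFit and eBayes, 2-sided, without covariates, with Benjamini-Hochberg adjustment over all kept probes. All adjusted p-values come from limma. Symbols came from GEO's platform annotation, which named 1 gene for 34885 probes. Where a group had no detected array, a fold is a bound against the dimmest detected signal. Named pathway genes are up to 4 called genes per list by size of change. Members and lists were chosen with earlier results of these data known. On simulated arrays with this comparison's group sizes and 17827 tested probes, 67 probes were changed 1.5-fold, 67 were changed 2-fold and 66 were changed 4-fold. Of these, 89.6% of 1.5-fold changes and 100% of 2-fold and of 4-fold changes were called, and 5.39% of all 204 calls were false. In the data, 7274 of 16674 probes were called, and simulated arrays with that many changes were not tested. The changed probes were drawn only from those well above background, so the rate for probes near background was not tested. The simulated rates were not split by brightness either. Alternatives covered background correction, normalization, the probe filter, 1 probe a gene, the variance prior, array weights, the replicate block, the authors' values and each array left out. Precision is limited by there being 3 arrays a group, and an exact permutation of 3 against 3 cannot go below p = 0.1.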

Additional observations from a re-analysis of the deposited data

How the results depend on the processing

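Sfrp1 and Sp5 kept direction and call in every alternative run, at 4.18-fold to 5.69-fold lower over both Sfrp1 probes and 2.67-fold to 5.68-fold higher for Sp5. The number of member genes that rose was 2. It was 1 with no dim-probe filter or with the replicate block, and 1 to 2 when single arrays were left out, in each case because Axin2 was not called. Median scaling over all probes left 2012 lower probes against 3794, 3 lower probes against 8 for β-catenin partners, and 6 higher and 1 lower against 3 and 2 for the destruction complex list. Requiring detection on all 6 arrays left 2 higher probes against 4 for ligand secretion, 5 against 12 for further targets, 6 against 11 for ligands, and 3 lower receptor probes against 5; fewer probes are tested under that filter. Uncalled estimates near 0 changed sign without being called: Ctnnb1 probe ILMN_1255869 was 0.0241 with cyclic loess, 0.0630 in the authors' values, 0.144 with all-probe median scaling, 0.00893 with array weights, and -0.0916 to 0.0987 with 1 array left out. Ctnnb1 probe ILMN_2994460 was -0.00767 after median scaling over kept probes, and Tcf7l1 probe ILMN_2771781 ran from -0.235 to 0.0696 with 1 array left out. The cause was not tested. Same-numbered replicates did not deviate together (correlations from -0.0059 to 0.0152, and 0 of 6 arrays correlated best with its own number). No pairing by number was seen, though this cannot show whether same-numbered cultures were made together. The replicate block left 3246 higher and 3401 lower probes and an Axin2 limma adjusted p of 0.0582. The 1.5-fold count was chosen after seeing the data. Slide as a block was not run, because no slide is given in the sources used here. Signal near background limits Sp5 in scrambled cells, Tcf7l1 probe ILMN_2771781 and the 10 undetected probes.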
